A study of Mus with 6 samples.

Results

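The heat shock proteins and chaperones are the genes whose symbol starts with Hspa, Hspb, Hspd, Hspe, Hsph, Hsp90, Dnaja, Dnajb, Dnajc, Bag or Hsf and goes on with a number (for Hsp90, with a or b). Their levels were compared between the hippocampus of mice loaded with forced swim stress (FSS mice) and that of control mice. By the annotation of the array, 81 genes fitted this rule, out of 19938 genes measured, and all 81 are protein-coding. Each gene was represented by its array row with the highest mean, where a row is 1 transcript cluster whose probes are summarised into 1 value. Hsf2bp, the gene of an HSF2-binding protein known from meiosis, entered through its symbol and not as a chaperone. Hsf1, Hsp90ab1 and Hspa1b had no row with that symbol alone, so they were not analysed here. A row annotated to both Hspa1a and Hspa1b was not used.

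Heat shock proteins hold other proteins in a foldable state, refold them after damage and pass them on to degradation. HSP70 proteins bind and release clients in an ATP cycle that J proteins (the Dnaj genes) start and that nucleotide exchange factors such as the BAG and HSP110 proteins reset. HSP90 takes over clients such as the glucocorticoid receptor, small heat shock proteins hold unfolded proteins without ATP, and heat shock factors switch on the inducible genes under proteotoxic stress. In neurons, HSP70 and its J proteins also act in the synaptic vesicle cycle.

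The 3 FSS mice were placed in water at 25 °C for 11 min on each of 5 days in a row, and the 3 control mice had no forced swim. All were male C57BL/6JJmsSlc mice with no genetic change, aged 10 to 11 weeks by the labels of both groups. The hippocampus was taken days after the last swim, with a tail suspension test in between, so no array shows the hours after a swim. Each array was of 1 mouse, and its values are log2 levels made by robust multi-array averaging (RMA), a method that removes background, equalises the distributions of the arrays and merges probes. The medians of the 6 arrays over all rows differed by 0.032 at most. The SDs of the arrays were 2.22 to 2.23 for FSS mouse 2, control mouse 1 and control mouse 2, and 2.26 to 2.27 for the other 3, and these sets are called the narrow and the wide arrays. All 13 excitatory neuron markers and all 7 inhibitory neuron markers lay at or above the median row of the array, whereas 7 of 10 choroid plexus markers lay below it. In whole tissue, fewer cells of a type and less RNA per cell cannot be told apart.

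No member was higher in FSS mice and 1 member was lower at an unadjusted p under 0.05 in limma, a linear model per gene whose variance is shrunk towards that of other genes. This set 0 of 81 against 2.5% of all genes that were higher, and 1 of 81 (1.23%) against 2.69% of all genes that were lower (5.2% in either direction). The lower member was Hsf3. No member passed a log2 fold change over 0.5 in size together with p under 0.05, the thresholds of the study's methods, which 0.0752% of all genes passed. No member passed an adjusted p of 0.05 in limma either, nor did any other gene, and the smallest adjusted p among the members was 0.872. The members had a median log2 fold change of 0.015, against 0.0039 over all genes. It was 0.031 without FSS mouse 2 and 0.0075 without FSS mouse 3, and with quantile normalization it was 0.0025. Of the 81 members, 56 lay above 0 (69.1%) and 25 below, against 52.5% of all genes above 0. Members differ from all genes in their level on the array, since 61 of 81 lay at or above the median row. Of these 61 members, 70.5% lay above 0, with a median of 0.015, against 61.6% of the 10902 genes at or above the median row, whose median was also 0.015. In groups of 3 mice the smallest two-sided p of an exact permutation test is 0.1, so this test could not pass 0.05 for any gene.

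**Figure D1:**
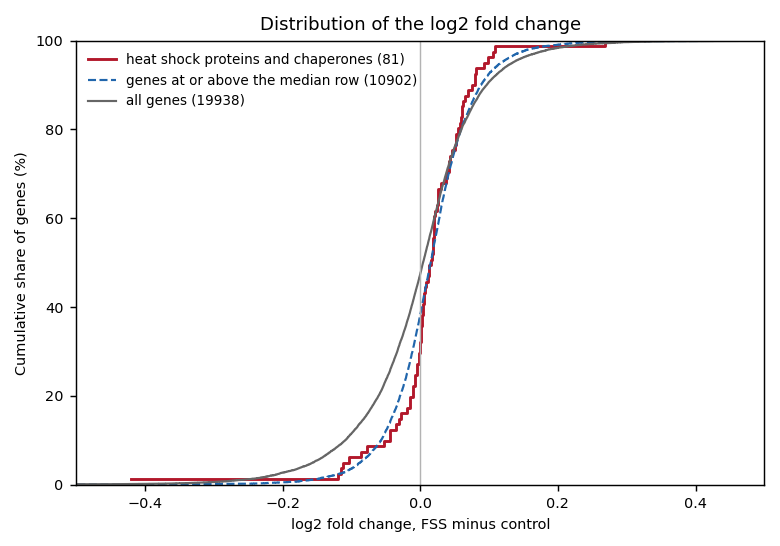
Cumulative share of genes (y axis, in %) by log2 fold change of FSS minus control mice (x axis), for the 81 heat shock protein and chaperone genes (red), the 10902 genes at or above the median row (blue, dashed) and all 19938 genes (grey). The red curve runs close to the blue one through their shared median of 0.015, and its ends are Hsf3 at -0.42 and Dnajb3 at 0.27.

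The intervals show how large a difference the arrays left possible. The 95% interval of the log2 fold change from limma stayed within 0.25 of 0 on both sides for 67 of 81 members (82.7%), against 66.1% of all genes. It stayed within 0.5 for 79 members (97.5%), against 96.5% of all genes. Among the 61 members at or above the median row, 58 (95.1%) stayed within 0.25 and all 61 within 0.5, against 86.2% and 99.3% of all genes there. Among the 20 members below the median row, 9 (45%) stayed within 0.25 and 18 (90%) within 0.5, against 41.8% and 93.2% of all genes there. The exceptions to the wider bound were Hsf3 and Dnajb3. The standard error (SE) had a median of 0.051 in the brighter members and of 0.081 in the dimmer ones, so the dimmer members were measured less precisely.

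**Figure D2:**
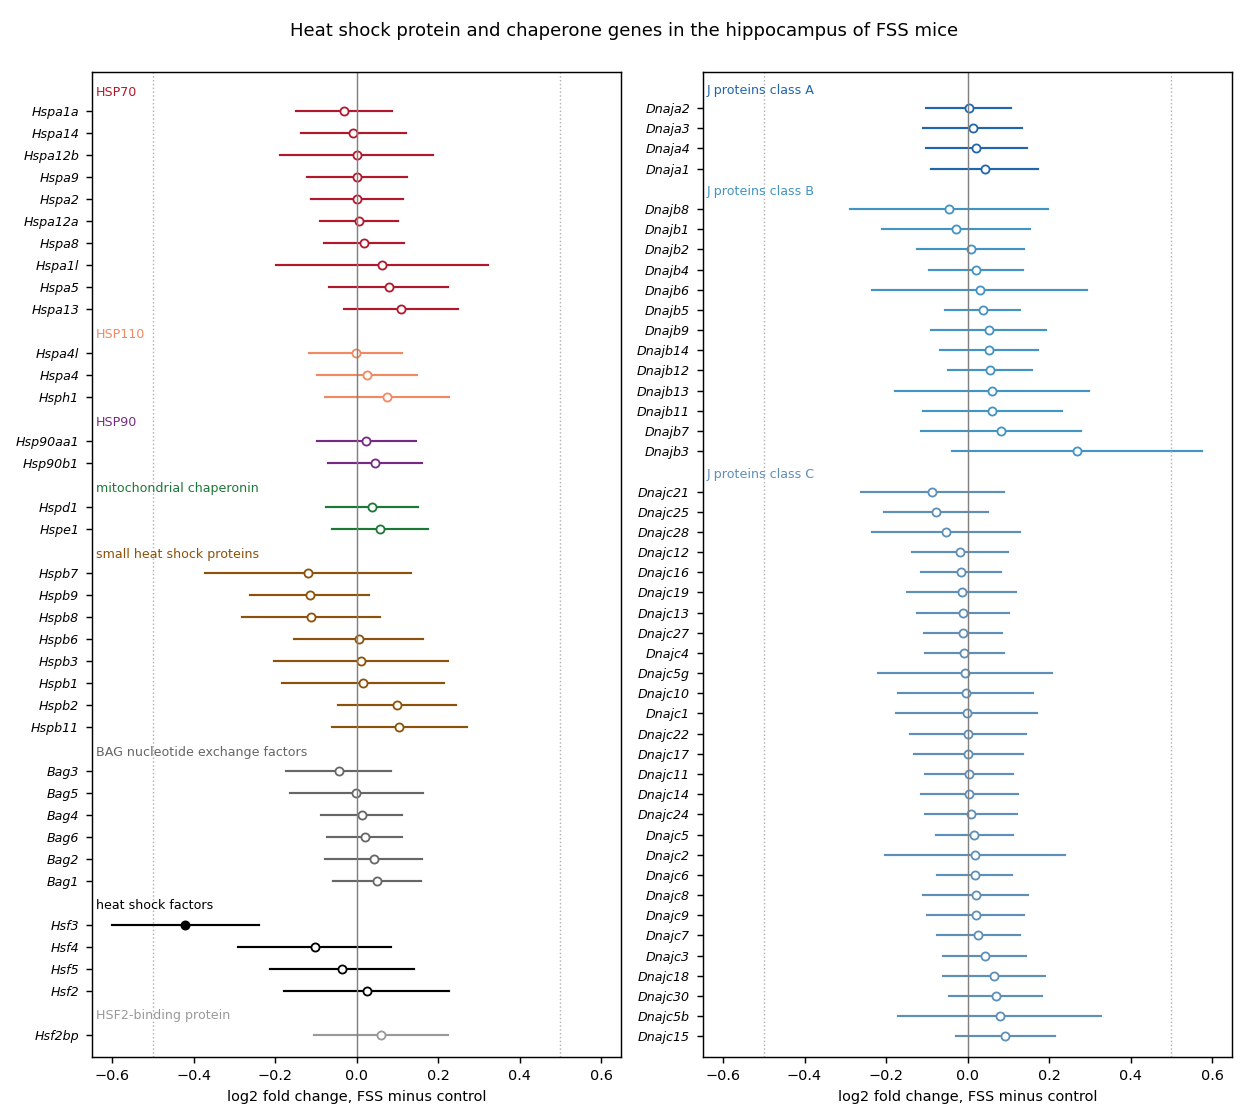
Estimates for the 81 members (y axis), grouped by protein family, as log2 fold change of FSS minus control mice (x axis). Circles are estimates, lines are 95% intervals from limma, filled circles have an unadjusted p under 0.05, and dotted lines mark -0.5 and 0.5. Hsf3 has the sole filled circle (-0.42), and the interval of every other member crosses 0.

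Of the 11 listed HSP70 genes, 10 were measured, and 0 of them passed in either direction (log2 fold changes from -0.031 to 0.11). Hspa1a, the stress-inducible HSP70 whose transcript is a common marker of the heat shock response, had levels of 8.66, 8.68 and 8.77 in FSS mice and of 8.77, 8.75 and 8.68 in control mice. FSS mouse 1 and FSS mouse 2 lay below every control mouse, and FSS mouse 3 lay within the control range. The log2 fold change was -0.031 (SE 0.050, adjusted p = 0.978 from limma), and its interval of -0.15 to 0.088 corresponds to 0.902-fold to 1.06-fold of the control level. Hspa1b is near-identical in sequence, so its transcript may be part of this value. Hspa8, the constitutive HSP70 that also strips clathrin from vesicles, had levels of 13.25, 13.24 and 13.28 in FSS mice and of 13.22, 13.23 and 13.28 in control mice. This gave a log2 fold change of 0.018 (interval -0.080 to 0.12), and FSS mouse 1 and FSS mouse 2 lay within the range of the control mice. Hspa9, the HSP70 of mitochondria, averaged 10.69 ± 0.068 in FSS mice and 10.69 ± 0.041 in control mice (SD, n = 3 each). Its log2 fold change was 0.00045 (SE 0.052), and the control mice lay between FSS mouse 2 and FSS mouse 3.

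Hspa13, an HSP70 of the endoplasmic reticulum (ER) without the substrate-binding part, had the highest log2 fold change after Dnajb3 among the members, though it did not pass. Its levels were 9.67, 9.52 and 9.66 in FSS mice and 9.50, 9.46 and 9.57 in control mice. FSS mouse 1 and FSS mouse 3 lay above every control mouse, and FSS mouse 2 lay within their range. The log2 fold change was 0.11 (SE 0.059, adjusted p = 0.943 from limma). Leaving out FSS mouse 2 gave 0.16, with an unadjusted p of 0.0255 and an adjusted p of 0.657 from limma. Without each of the other mice it lay between 0.081 and 0.14 and did not pass.

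Hspa5, the BiP chaperone of the ER, had levels of 11.16, 11.10 and 10.98 in FSS mice and of 11.07, 10.97 and 10.97 in control mice. The difference was 0.079 on the log2 scale (interval -0.067 to 0.22). FSS mouse 3 lay within the control range and the other FSS mice above it. Dnajb9 and Dnajb11, J proteins that work with BiP, lay at 0.051 (SE 0.059) and 0.061 (SE 0.072). Hsp90b1, the HSP90 of the ER, had a log2 fold change of 0.046 (interval -0.070 to 0.16). Of the 8 ER members, 6 lay above 0 and 2 below, 0 passed, and their median log2 fold change was 0.049, against 0.015 over the 61 brighter members.

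The nucleotide exchange factors of HSP70 gave small differences. The 3 HSP110 genes had log2 fold changes of -0.0018 to 0.075 and 0 passed. Hsph1, the heat-inducible one, had levels of 10.59, 10.42 and 10.50 in FSS mice and of 10.50, 10.34 and 10.44 in control mice. Mouse 1 was the highest and mouse 2 the lowest in both groups, and the log2 fold change of 0.075 (SE 0.064, adjusted p = 0.968 from limma) was smaller than the SD of 0.085 among FSS mice. All 6 BAG genes were measured and 0 passed (median log2 fold change 0.016). They lay between -0.044 for Bag3 and 0.050 for Bag1, the founding member of the family. Bag3, the inducible BAG protein of selective autophagy, was at 7.80, 7.91 and 7.86 in FSS mice and at 7.92, 7.96 and 7.82 in control mice. FSS minus control was -0.044 on the log2 scale (interval -0.17 to 0.085), and 2 FSS mice lay within the range of the control mice.

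For HSP90 in the cytosol, Hsp90aa1, the stress-inducible form, had levels of 12.48, 12.36 and 12.49 in FSS mice and of 12.41, 12.40 and 12.46 in control mice. FSS mouse 2 lay below every control mouse and the other 2 FSS mice above them. The log2 fold change was 0.024 (interval -0.098 to 0.15). The chaperonin of mitochondria is built of the products of Hspd1 (HSP60) and its lid Hspe1 (HSP10), whose genes lie head to head. Their log2 fold changes were 0.038 (interval -0.074 to 0.15) for Hspd1 and 0.058 (interval -0.059 to 0.18) for Hspe1. Of 9 mitochondrial members, 7 lay above 0 and 0 passed. Among them Dnajc15, a J protein of the inner membrane, had the largest value, 0.093 (SE 0.051, adjusted p = 0.943 from limma). It was measured at 9.33, 9.26 and 9.39 in FSS mice and at 9.20, 9.23 and 9.28 in control mice, so that 1 FSS mouse lay within the control range.

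All 8 listed small heat shock proteins were measured, and 0 passed in either direction (median log2 fold change 0.0082). Hspb8, the partner of BAG3, had levels of 8.10, 7.94 and 8.21 in FSS mice, whereas control mice lay close together at 8.19, 8.21 and 8.20. FSS mouse 1 and FSS mouse 2 lay below the control mice and FSS mouse 3 above them. The SD was 0.14 in FSS mice and 0.010 in control mice (n = 3 each). Its log2 fold change was -0.11 (SE 0.071, adjusted p = 0.945 from limma), and without FSS mouse 3 it was -0.18 with an unadjusted p of 0.0339 from limma (adjusted p = 0.999). Without FSS mouse 2 it was -0.040 (SE 0.053), so that single FSS mice moved this value in both directions. Hspb1 (HSP25 in mice), a stress-inducible small heat shock protein, differed more between mice of 1 group than between groups. FSS mice had 7.74, 7.87 and 7.61, control mice 7.85, 7.67 and 7.66, and the log2 fold change was 0.015 (interval -0.18 to 0.21). Of the other small heat shock proteins, Hspb7 and Hspb9 lay at -0.12 each, and Hspb2 and Hspb11 at 0.098 and 0.11. The rest of the family, Hspb3 and Hspb6, which are best known from muscle, lay at 0.011 and 0.0055. Hspb11 is also known as a subunit of intraflagellar transport, and Hspb9 is known from the testis. Without FSS mouse 2 the log2 fold change of Hspb7 was -0.22 (unadjusted p = 0.0417 and adjusted p = 0.657 from limma). It was -0.037 without FSS mouse 1, -0.066 without control mouse 1 and, blocking on array spread, -0.034, and did not pass in any of these.

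**Figure D3:**
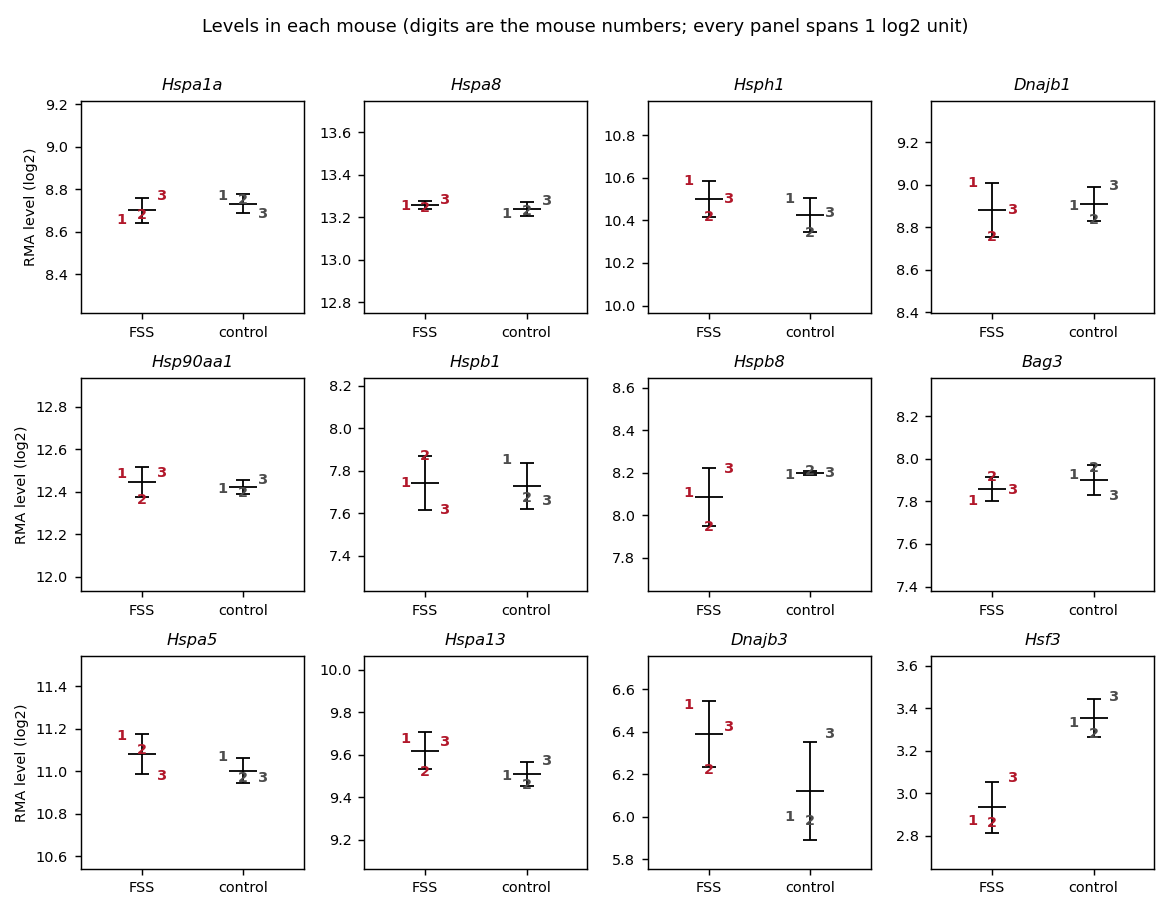
RMA level (y axis, log2) of 12 members in FSS mice (red digits) and control mice (grey digits). Digits are the mouse numbers, bars give mean ± SD (n = 3), and every panel spans the same range of 1 log2 unit. The groups are apart for Hsf3, with 2.86 to 3.07 in FSS mice and 3.28 to 3.45 in control mice, and overlap in the other 11 panels.

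The J proteins form the largest family here, with 45 members measured. None of them passed (median log2 fold change 0.017, with 31 above 0 and 14 below). The classes are set by how much of the bacterial DnaJ layout a protein keeps, with class A closest to it and class C sharing only the J domain. The 4 class A genes lay between 0.0026 for Dnaja2 and 0.042 for Dnaja1. The 13 class B genes lay between -0.045 for Dnajb8 and 0.27 for Dnajb3, with a median of 0.051 and 11 above 0. The 28 class C genes, the most varied in role, lay between -0.087 for Dnajc21 and 0.093 for Dnajc15, with a median of 0.0027 and 16 above 0. Dnajb1, the main heat-inducible J protein (HSP40), had levels of 9.01, 8.75 and 8.88 in FSS mice and of 8.90, 8.84 and 8.99 in control mice. The FSS mice spread to both sides of the control mice, and the log2 fold change was -0.028 (interval -0.21 to 0.15). Dnaja1, a partner of HSP70 in the cytosol, lay at 0.042 (interval -0.089 to 0.17). Dnajb2, which is abundant in neurons, lay at 0.0074 (interval -0.12 to 0.14). Dnajb6, which keeps polyglutamine proteins from aggregating, lay at 0.030 (interval -0.23 to 0.29) in its row with that symbol alone, which lies below the median row. Of the J proteins of vesicles, Dnajc5 (cysteine string protein, on synaptic vesicles) and Dnajc6 (auxilin, a partner of HSP70 in clathrin uncoating) were among the most evenly measured members, with SDs within groups of 0.019 and 0.014. Their log2 fold changes were 0.017 (interval -0.077 to 0.11) for Dnajc5 and 0.018 (interval -0.074 to 0.11) for Dnajc6.

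Dnajb3, a J protein known from male germ cells, had the largest log2 fold change above 0 of all members, 0.27 (SE 0.13, adjusted p = 0.943 from limma), and did not pass. Its levels were 6.53, 6.22 and 6.42 in FSS mice and 6.00, 5.98 and 6.39 in control mice. Control mouse 3 lay among the FSS mice, and both other control mice lay below all of them. Without control mouse 3 this difference came to 0.40 (unadjusted p = 0.00553 and adjusted p = 0.701 from limma), and without FSS mouse 2 to 0.35 (unadjusted p = 0.0409 and adjusted p = 0.657). Without each of the other mice it lay between 0.20 and 0.25 and did not pass. Among the narrow arrays (1 FSS mouse) FSS minus control came to 0.23, and among the wide arrays (1 control mouse) to 0.088. With the array spread as a block it was 0.16 (unadjusted p = 0.0303 and adjusted p = 0.811 from limma). Its SD within groups, 0.20, was the largest among the members, and it lies below the median row.

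Of the 5 heat shock factors listed, 4 were measured. Hsf3, a heat shock factor found in mice and birds, was the 1 member lower in FSS mice. Its levels were 2.87, 2.86 and 3.07 in FSS mice and 3.33, 3.28 and 3.45 in control mice. Every FSS mouse lay below every control mouse. The group means were 2.94 ± 0.12 in FSS mice and 3.36 ± 0.089 in control mice (SD, n = 3 each). The log2 fold change was -0.42 (SE 0.076, interval -0.60 to -0.24), which is 0.747-fold of the control level. The unadjusted p was 0.000964 from limma, the adjusted p 0.872, and the exact two-sided permutation test gave p = 0.1, the smallest it can give. It stayed between -0.49 and -0.37 without each mouse in turn. Within the narrow arrays it was -0.44, and within the wide arrays -0.48. This row lies at the low end of the array, far below the median row at 7.33, and whether it measures Hsf3 transcript above background was not tested. Hsf2, a factor of development and of the inducible response, had levels of 8.63, 8.44 and 8.76 in FSS mice and of 8.59, 8.53 and 8.64 in control mice. FSS minus control was 0.025 on the log2 scale (interval -0.18 to 0.23), with control mice inside the range of FSS mice. Hsf5, known from male germ cells, lay at -0.036 (SE 0.075). Hsf4, known from the lens, lay at -0.10 (interval -0.29 to 0.084).

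The 13 measured genes of the 15 that were listed as heat-inducible include Hspa8, which is described above as constitutive. They were read together, since a heat shock response moves inducible genes in 1 direction. Of these 13 genes, 0 passed, 8 lay above 0 and 5 below. Their median log2 fold change was 0.018, the value of Hspa8, against 0.015 over genes at or above the median row. Their intervals stayed within 0.25 of 0 for 12 of 13, the exception being Hspb8. On single arrays, the median deviation of these 13 genes from their own means was 0.0023, -0.036 and 0.057 in FSS mice 1, 2 and 3, and -0.018, -0.033 and 0.0052 in control mice 1, 2 and 3. FSS mice 3 and 2 were the highest and the lowest of the 6 arrays in this median, with the control mice between them. FSS mouse 2 was the lowest FSS mouse for 9 of these 13 genes, for 40 of the 61 brighter members and for 46 of all 81. No such count was made over all genes. Over all genes at or above the median row, the median deviation was 0.024, -0.018 and 0.014 in FSS mice 1, 2 and 3. FSS mouse 2 was thus the lowest FSS mouse there too. In the 61 brighter members this median was 0.0187, -0.0361 and 0.0295 in the same mice. Over all genes it was 0.0112, -0.00297 and -0.00319, so that FSS mice 2 and 3 lay close together. Whether the place of FSS mouse 2 is particular to the members was not tested. FSS mouse 2 is also the FSS mouse among the narrow arrays. Of the 61 brighter members, 44 (72.1%) had a higher mean on the wide arrays, and so had 69.7% of all genes at or above the median row. Over the 81 members, the log2 fold change had a median of -0.0058 within the narrow arrays, 0.030 within the wide arrays and 0.0084 with the array spread as a block.

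**Figure D4:**
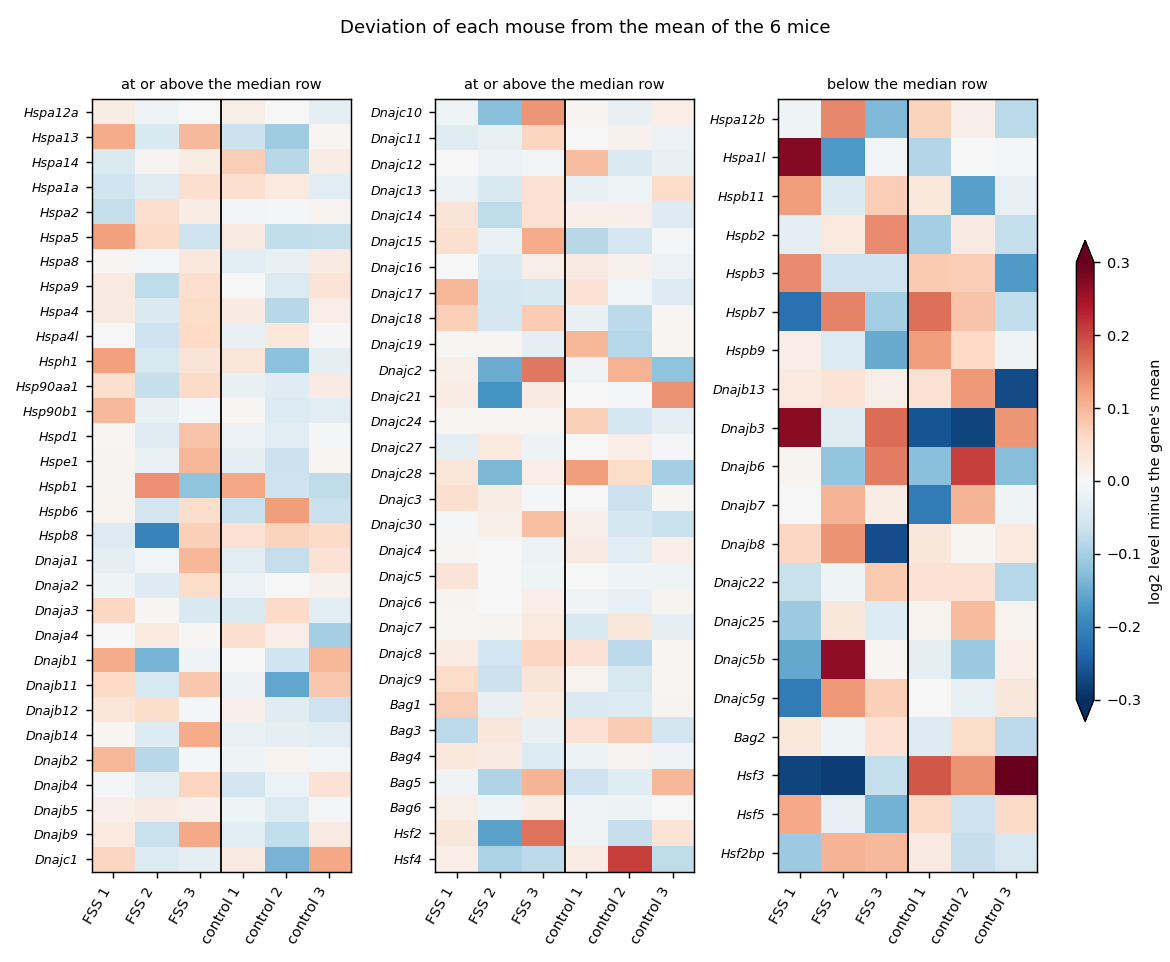
Deviation of the log2 level of each mouse (columns, FSS mice left of the line and control mice right of it) from the gene's mean over the 6 mice, for the 61 members at or above the median row (left and middle) and the 20 below it (right). Colours run from -0.3 (blue) to 0.3 (red). FSS mouse 2 is the lowest FSS mouse for 40 of the 61 brighter members. It also has the lowest median deviation of the FSS mice over all genes at or above the median row. Hsf3 is blue in all 3 FSS mice and red in all 3 control mice.

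For 64 members (79%) at least 1 FSS value lay inside the range of the control mice, against 80% of all genes. All 3 FSS mice lay in that range for 13 members (16%, against 19.3% of all genes), 2 FSS mice for 14 (17.3%, against 30.5%), 1 FSS mouse for 37 (45.7%, against 30.2%) and none for 17 (21%, against 20%). Without regard to a test, the groups did not overlap for 2 members. Hsf3 was lower in all FSS mice, as 4.31% of all genes were, and Dnajb5 was higher in all FSS mice, as 5.89% of all genes were. Dnajb5, a J protein of class B that was singled out after its values were seen, was at 9.88, 9.89 and 9.88 in FSS mice and at 9.85, 9.82 and 9.86 in control mice. The log2 fold change was 0.037 (SE 0.039, adjusted p = 0.971 from limma), and its SD within groups, 0.015, was among the smallest of the members.

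For 8 members the array holds more than 1 row with that symbol alone. The numbers of the rows follow the chromosomes, as 96.4% of rows stand among rows whose genes lie on the same chromosome as their own. For 5 members, namely Dnaja1, Hsp90aa1, Hspa8, Hspb1 and Hspd1, the row with the highest mean stands among rows of another chromosome than the gene's own. Whether these rows were designed on copies of the genes was not tested. With the row on the gene's own chromosome, the log2 fold change was 0.042 for Hspa8, 0.015 for Hsp90aa1 and 0.049 for Hspd1, and it changed sign for Dnaja1 (-0.038) and Hspb1 (-0.0079). No row of these 8 genes passed an unadjusted p under 0.05. Dnajc13, a J protein of endosomes, is measured by 15 rows, and their log2 fold changes ran from -0.062 to 0.027. The 2 rows of Dnajc3, an ER co-chaperone, held the same values on every array.

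**Figure D5:**
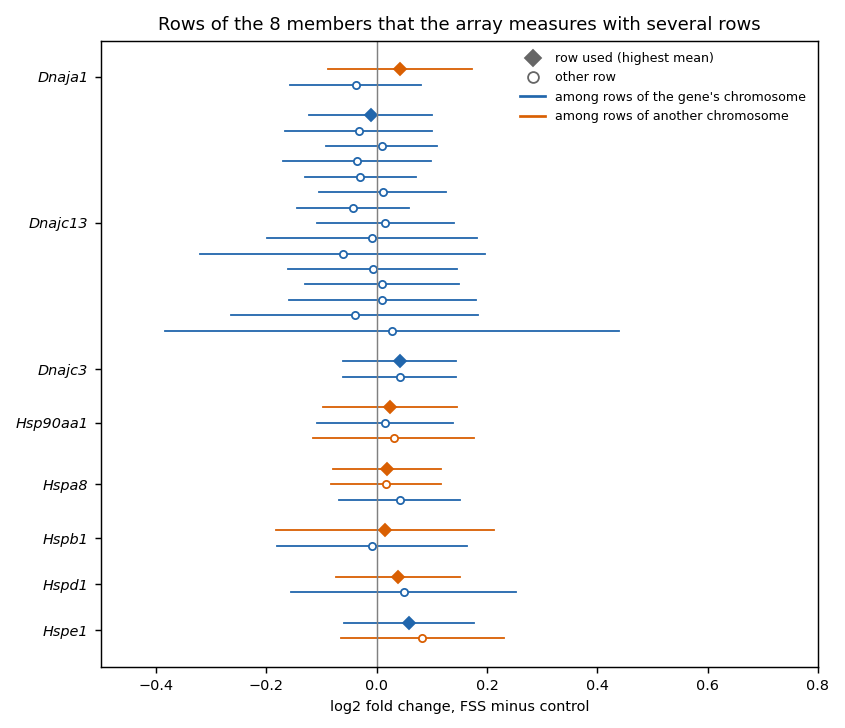
Log2 fold change of FSS minus control mice (x axis) with its 95% interval from limma, for every row of the 8 members measured by several rows (y axis). Diamonds are the rows used, circles the other rows, and orange marks rows that stand among rows of another chromosome. Every interval crosses 0, and the 15 rows of Dnajc13 lie between -0.062 and 0.027.

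Other genes of the folding machinery, listed for their roles with earlier results of these data known, gave few calls as well. Against 5.2% of all genes, 0 of 28 measured co-chaperones of HSP70 and HSP90 outside the rule passed (median log2 fold change 0.026). The lowest of their log2 fold changes was that of Fkbp5, a co-chaperone of the glucocorticoid receptor that glucocorticoids induce, at -0.18 (interval -0.42 to 0.066). Fkbp5 averaged 8.66 ± 0.14 in FSS mice and 8.84 ± 0.16 in control mice (SD, n = 3 each), and the groups overlapped. Of 27 measured chaperones of other families, 1 was higher, against 2.5% of all genes, and 0 were lower, against 2.69% (median log2 fold change 0.053). This list includes the TRiC chaperonin, prefoldin and ER folding enzymes. The higher one was Pdia4, a protein disulfide isomerase of the ER. Pdia4 had levels of 9.97, 9.92 and 9.97 in FSS mice and of 9.85, 9.78 and 9.72 in control mice, with no overlap. Its log2 fold change was 0.17 (SE 0.049, interval 0.056 to 0.29, adjusted p = 0.943 from limma). In this list 4 genes, Pdia4 among them, were higher in all FSS mice, as 5.89% of all genes were, and 1 was lower, as 4.31% were. Beside these values, 4 of 11 microglial, 3 of 9 astrocytic, 1 of 8 meningeal, 1 of 10 choroid plexus and 1 of 13 excitatory neuron markers were higher at an unadjusted p under 0.05 in limma, as 2.5% of all genes were, and 1 astrocytic marker was lower. No marker of the other 5 lists (inhibitory neurons, oligodendrocytes, endothelium, ependyma, and thalamus and habenula) passed in either direction. The mean level of the microglial markers was 8.78 to 8.85 in FSS mice and 8.61 to 8.76 in control mice. The groups were also apart in this mean for astrocytic (10.52 to 10.59 against 10.43 to 10.5) and meningeal markers (7.97 to 8.17 against 7.88 to 7.96). They overlapped in it for the other lists, among them the choroid plexus markers (6.86 to 7.01 against 6.69 to 6.90). The summed linear level of the 10 choroid plexus markers was 1732 to 2012 in FSS mice and 1312 to 1638 in control mice, without overlap. This sum was also apart for microglial (5963 to 6221 against 5330 to 5943) and meningeal markers (3841 to 3961 against 3569 to 3634). It overlapped for astrocytic markers (21400 to 22120 against 21530 to 21600) and for the remaining lists. The choroid plexus markers had a median log2 fold change of 0.016 and include Ttr, whose 0.95 was the highest of all genes. The part of these cell types in the levels of chaperone genes was not tested.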

How the data were processed

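Hippocampal RNA of 3 FSS and 3 control mice was measured with GeneChip Mouse Gene ST arrays, each hybridised with RNA of 1 mouse. By the study's methods, the mice shown for forced swim stress were picked at random from a larger number that were arrayed. The authors summarised the arrays by RMA in Affymetrix Expression Console and deposited log2 levels. The genome build is not given in the sources used here. Of 28944 rows, 21789 had 1 gene symbol in the annotation of the array, 1621 had several and 5534 were unnamed here. By gene ID, 21698 rows matched RefSeq (GRCm38.p6), and 0 symbols differed. FSS minus control was fitted over the 21789 rows with limma 3.58.1 in R 4.3.3 (lmFit and eBayes, no covariate), with Benjamini-Hochberg adjustment, and the highest-mean row was then kept for each of 19938 genes. The number of arrays limits the precision. The step was tested on simulated data. No test was run on a list of genes.

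The members and lists were chosen with earlier results of these data known. The 28 members named by rule had an unadjusted p under 0.05, were among the 5 largest log2 fold changes in either direction, or were named for their role. The alternatives were other tests, array weights, normalizations, rows and filters, a replicate block and leaving out each mouse. Those on the array spread and the row on the gene's own chromosome were chosen after seeing the data. Counting the members without overlap under the alternatives was not planned beforehand.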

Additional observations from a re-analysis of the deposited data

How the results depend on the processing

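Hsf3 remained lower at an unadjusted p under 0.05 in limma or Student's t-test under every alternative that kept its row. Its log2 fold changes there were -0.49 to -0.37. The study's methods name Student's t-test in general and no test for the arrays. Without dim rows 61 members were left, of which 0 were lower and 0 were higher, and the member with lower values in all FSS mice was gone as well (0). The number of higher members, 0 in the fit described, was 1 by Student's t-test (Dnajb5) and 2 with array weights (Dnajb3 and Hspa13). It was 1 with the replicate block (Dnajb3), 1 with the array spread as a block (Dnajb3) and 0 to 2 without each mouse. The number of lower members was 2 with the replicate block, which added Hspb9, 2 with the array spread block, which added Dnajc21, and 1 to 2 without each mouse. The replicate block changed no other call. Deviations from the group means correlated at -0.048, 0.145 and 0.239 between mice 1, 2 and 3 of both groups. FSS mouse 1 correlated best with control mouse 3 (0.060), whereas FSS mice 2 and 3 correlated best with the control mice of their own number. Deviations from a mean of 3 mice depend on each other, so these values cannot show whether mice of the same number were handled together. A threshold of 0.25 in place of 0.5 called 1 member, Hsf3. Without each mouse, 6 to 18 members had no overlap with higher values in FSS mice and 1 to 6 with lower values, as fewer mice overlap more rarely in all genes too (8.74% to 15.3% higher and 6.97% to 11.8% lower). The highest of these counts, 18 of 81 members, was found without FSS mouse 2, a larger share than the 15.3% of all genes. The lowest, 6 of 81 members, was found without FSS mouse 1, a smaller share than the 8.74% of all genes.

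Members near 0 changed sign without passing. With quantile normalization, Dnajb2 lay at -0.0100, Dnajc5 at -0.020, Dnajc6 at -0.0099, Hspa8 at -0.010 and Hspa9 at -0.00055. With array weights Hspb1 lay at -0.025. With the array spread block, Dnajb2 lay at -0.013, Hsf2 at -0.032, Hsp90aa1 at -0.0059 and Hspa9 at -0.029. With the row on the gene's own chromosome, Dnaja1 lay at -0.038 and Hspb1 at -0.0079. Without each mouse, log2 fold changes ran from -0.091 to 0.035 for Dnajb1, from -0.040 to 0.051 for Dnajb2, from -0.040 to 0.14 for Dnajb6, from -0.051 to 0.11 for Hsf2, from -0.025 to 0.039 for Hspa9 and from -0.049 to 0.080 for Hspb1. The causes of these changes were not tested. The median standard error was 0.081 in the dimmer members and 0.051 in the brighter ones.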
